A study of Mus musculus with 18 samples.

Results

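CD8 single-positive (CD8 SP) thymocytes were set against CD4/CD8 double-positive (DP) thymocytes from the same conditional knockout strain (cKO). In these mice FoxN1-Cre removes exon 3 of Gpr177, now named Wls, in thymic epithelial cells. The arrays were taken by their labels: 3 of CD8 SP cKO and 3 of DP cKO, 6 of the 18 arrays of the series. Further arrays used beside them were 3 of CD4 SP cKO, 3 of CD8 SP wt and 3 of DP wt, where wt stands for C57Bl/6N mice without the deletion. All mice were 4 to 6 weeks old, the strain label of both genotypes is C57Bl/6N, and cells were sorted by flow cytometry. Total RNA (200 ng) was labelled as cRNA and read on Illumina mouse BeadChips. FoxN1-Cre acts in epithelium, so the thymocytes on the arrays keep an intact Wls gene and the arrays do not check the deletion. The labels do not say whether the arrays of a group came from separate animals or whether wt mice carried the Cre. The p-values therefore measure the spread between arrays of a group, which may be technical. That spread was pooled over all 18 arrays of the series, CD4 SP wt included.

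DP thymocytes carry both coreceptors, still express the recombination machinery of the T cell receptor alpha locus, and die unless their receptor binds self peptide on MHC. Cells selected on MHC class I shut off CD4, become CD8 SP, move from the cortex to the medulla, and acquire the receptors that let them survive and leave. Wls carries WNT proteins to the cell surface. Epithelial WNT signals are known for their part in the growth and upkeep of the thymic epithelium.

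Median bead intensity was 212.4 to 273.4 on the CD8 SP cKO arrays and 132.6 to 230.7 on the DP cKO arrays, and CD8 SP was the brighter on each of the 3 chips. Detected probes made up 41.5% to 46.0% of 46237. Array 3 of CD8 SP cKO stood apart from the other two of its group (r = 0.848 with either, against 0.906 between them), while DP cKO arrays correlated with each other at 0.888 to 0.906. Between the groups, CD8 SP cKO and DP cKO arrays correlated at 0.787 to 0.853, a range that takes in the 0.848 of array 3 with its own group. All values below are normalized log2 intensities, and differences are CD8 SP cKO minus DP cKO on the log2 scale with standard errors from limma, unless another comparison is named. In bulk RNA, fewer cells of a type and less RNA per cell cannot be told apart.

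The sorting markers followed the labels for CD4 and in part for CD8. A Cd4 probe read 4.24, 4.44 and 4.32 in CD8 SP cKO, below detection on each array, against 8.94, 8.26 and 8.64 in DP cKO. The brighter Cd4 probe, which stands for the gene, gave 6.90, 6.93 and 6.63 in CD8 SP cKO and 8.41, 8.34 and 8.31 in DP cKO (difference -1.54 ± 0.26, limma adjusted p = 0.00122). The groups were apart on both probes. Cd8b1, which encodes CD8 beta, was bright in both groups on its brightest probe (10.97 to 11.10 in CD8 SP cKO, 11.69 to 11.83 in DP cKO) and that probe was not called (limma adjusted p = 0.199). Its other probes disagreed, one called lower (-1.09 ± 0.29) and one called higher (1.63 ± 0.41), so no direction is given for Cd8b1. Against CD4 SP cKO the brightest probe stood 2.65 higher in CD8 SP cKO, and the probe called lower 3.76 higher. The probe called higher did not separate the SP populations (-0.35, limma adjusted p = 0.816). The tested Cd8a probe and the Cd24a probe were below detection on all 6 arrays. The chains of the CD3 complex Cd3d, Cd3e and Cd3g and the activation marker Cd69 were detected on all 6 arrays and not called, while Cd247, the zeta chain, fell by 1.0 (limma adjusted p = 0.00555). Wls itself was detected on all 6 arrays at 6.55, 6.47 and 5.91 in CD8 SP cKO and 6.46, 7.12 and 6.83 in DP cKO, which overlap (-0.50 ± 0.31, limma adjusted p = 0.461), and its other tested probe was detected on 1 array of each group.

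In cKO thymi 956 of 13894 genes differed between CD8 SP and DP cells (percent called 6.88). These are differences between sorted populations, and no cells were followed from one stage to the next. Higher in CD8 SP cKO were 463 (3.33) and lower 493 (3.55), at a limma adjusted p under 0.05 with each gene read from its brightest tested probe. Of these genes 771 differed at least 2-fold in either direction. The signed median difference over all genes tested was 0.05, which gives the centre of the differences and not their size. The 3 values of one group lay on one side of the 3 of the other for 952 of the 956, where 22.9 percent of all genes tested had groups that did not overlap (12.7 higher and 10.2 lower). For 955 of them the sign was the same on all 3 chips, against 40.7% of all genes tested. Both counts use the values that made the calls, so they largely follow from the calling and give no separate support. Counted by probe, 1848 of 26676 passed (6.93), 730 higher (2.74) and 1118 lower (4.19), and with arrays scaled to one median in place of quantiles 846 were higher and 634 lower. Without array 1 of DP cKO 1081 probes passed, and with every array numbered 3 left out 995 passed.

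**Figure D1:**
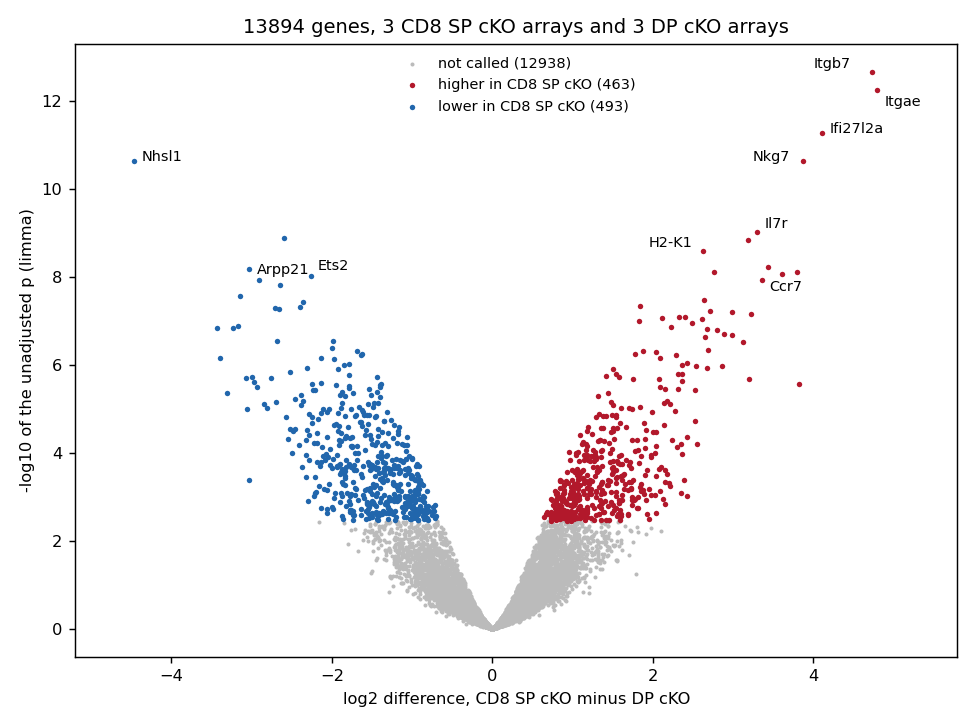
Log2 difference of each gene between CD8 SP cKO and DP cKO (x axis) against -log10 of its unadjusted limma p (y axis), 1 point per gene. Red points are the 463 genes called higher and blue points the 493 called lower in CD8 SP cKO; Itgae and Itgb7 lie farthest to the upper right and Nhsl1 farthest to the left.

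The 2 steepest rises formed one adhesion receptor. Itgae, the CD103 integrin chain, read 9.70, 9.17 and 9.32 in CD8 SP cKO, against 4.77, 4.41 and 4.6 in DP cKO, where no array detected it. Its partner chain Itgb7 read 9.25, 9.07 and 9.20 in CD8 SP cKO and 4.47, 4.27 and 4.6 in DP cKO, again below detection. The pair binds E-cadherin on epithelium. Where no array of a group detects a probe, its difference is a bound, taken against the lowest detected value of each array: at least 23-fold for Itgae (limma adjusted p = 4.87e-09) and at least 19.7-fold for Itgb7 (limma adjusted p = 3.36e-09). The other 5 Itgae probes had the same sign, and 3 of them were called higher.

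Among the other 10 were a cytotoxic granule gene, a chemokine and receptors of chemokines and cytokines. Nkg7, a cytotoxic granule membrane protein, read 8.5, 8.21 and 7.84 in CD8 SP cKO and 4.24, 4.35 and 4.34 in DP cKO (at least 9.93-fold, limma adjusted p = 7.63e-08). Xcl1, a chemokine that draws cross-presenting dendritic cells, was at 7.48, 7.76 and 7.73 in CD8 SP cKO against 4.29, 4.76 and 4.26 in DP cKO (at least 6.89-fold). Ccr7, the receptor that guides selected cells to the medulla, was at 9.0, 8.90 and 8.63 in CD8 SP cKO and at 5.67, 4.69 and 6.09 in DP cKO (3.36 ± 0.33, limma adjusted p = 8.34e-06). Il7r, the interleukin-7 receptor chain that sustains mature T cells, was at 7.63, 7.34 and 7.76 in CD8 SP cKO and below detection at 4.23, 4.27 and 4.32 in DP cKO (at least 6.51-fold). These groups were far apart in every case, with no value of one near the other. The interferon-inducible Ifi27l2a (at least 15.9-fold), the ARF exchange factor Cyth4 (3.82 ± 0.56), Ly116 (3.8 ± 0.36), the membrane protein Ms4a6b (3.61 ± 0.35), the tetraspanin Cd53 (3.44 ± 0.32) and the G protein subunit Gng2 (3.20 ± 0.46) completed the 12 largest rises. The other tested probe of Cyth4 was at 0.06 and that of Gng2 at 1.01, neither called (limma adjusted p = 0.981 and 0.150).

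Nhsl1, a gene of the Nance-Horan family, fell furthest, at 4.66, 4.46 and 4.51 and below detection in CD8 SP cKO against 9.15, 9.30 and 8.58 in DP cKO (at least 17-fold lower, limma adjusted p = 7.63e-08). Arpp21, an RNA-binding protein typical of DP cells, was at 5.73, 5.72 and 4.95 in CD8 SP cKO and 8.66, 8.42 and 8.40 in DP cKO (-3.03 ± 0.29, limma adjusted p = 6.03e-06). Plxnd1, a semaphorin receptor known for its part in thymocyte migration, was at 5.75, 5.86 and 5.53 in CD8 SP cKO, against 8.80, 8.97 and 8.81 in DP cKO (-3.14 ± 0.33). In these 3 genes the spread within a group was small beside the gap between groups. Sit1, a membrane adaptor that dampens T cell receptor signals, was detected on no CD8 SP cKO array and on all DP cKO arrays (at least 6.86-fold lower). The sulfate donor synthase Papss2 (-3.43 ± 0.40) and the phosphatase inhibitor gene Ppp1r1c (-3.23 ± 0.38) also fell. So did the transcription elongation cyclin Ccnt2 (-3.17 ± 0.37), the splicing factor Snrp70 (-3.06 ± 0.44), the zinc finger repressor Trps1 (-3.06 ± 0.49) and the chromatin protein Brd8 (-2.97 ± 0.43). Dyrk1b, a kinase, had 1 CD8 SP cKO array at 8.02 and the others at 5.38 and 5.66, against 9.85, 9.54 and 9.58 in DP cKO (-3.31 ± 0.50). Wdr78 (-3.03 ± 0.69) lost its call without array 2 of CD8 SP cKO (limma adjusted p = 0.0694). For Papss2 the other tested probe had the opposite sign, as had 1 of 2 for Ccnt2, 1 of 3 for Brd8 and 2 of 6 for Ppp1r1c, none of them called. The other Dyrk1b probes had the same sign but lay near 0 (-0.36 and -0.16, limma adjusted p = 0.650 and 0.899).

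**Figure D2:**
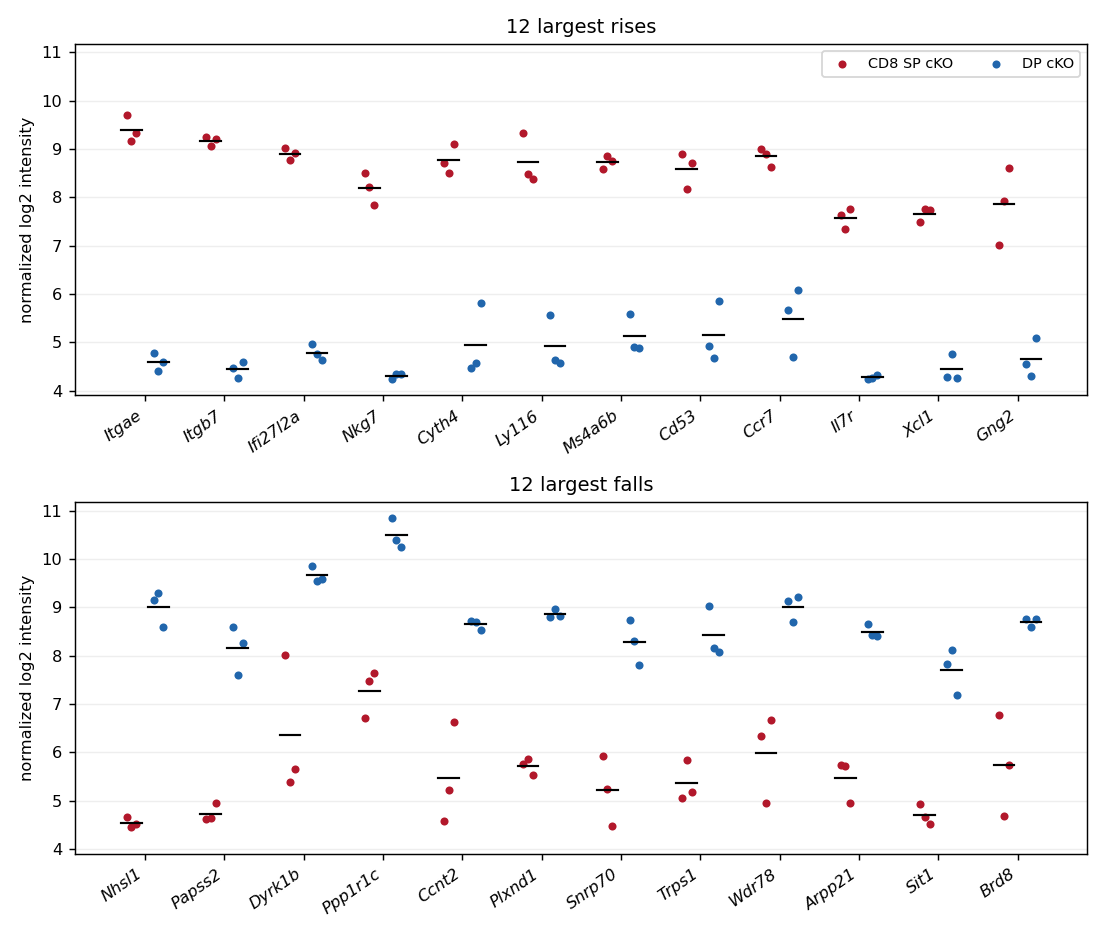
Normalized log2 intensity (y axis) of the 12 genes with the largest rise (top) and the 12 with the largest fall (bottom); each point is an array, red for CD8 SP cKO and blue for DP cKO, and the line is the group mean. Genes were chosen among those without overlap between the groups, and Dyrk1b has a CD8 SP cKO array at 8.02 far above the other two.

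Of 12 measured genes of the DP stage and of receptor recombination 7 fell and 0 rose, with a median of -1.37. Members and lists, here and below, were chosen with earlier results of these data known, so their counts are descriptive. Over all genes tested 3.33 percent were called higher and 3.55 percent lower. Rag1, a subunit of the recombinase, was at 10.05, 9.82 and 10.03 in CD8 SP cKO and at 11.88, 11.71 and 11.51 in DP cKO (-1.73 ± 0.26, limma adjusted p = 0.000585), so a bright signal remained. Its partner Rag2 was below detection in CD8 SP cKO (4.45, 4.34 and 4.24) and at 6.46, 6.91 and 5.51 in DP cKO (at least 2.58-fold lower). The factor Ets2 (-2.26 ± 0.22) and the water channel gene Aqp11 (-1.88 ± 0.30) fell as well. Themis, needed for positive selection, fell by 2.06 with its call lost without array 1 or 2 of CD8 SP cKO or array 1 or 3 of DP cKO (limma adjusted p = 0.0552 to 0.0907). Dntt, the terminal transferase, had 8.69, 8.69 and 8.80 in CD8 SP cKO and 9.65, 9.35 and 9.55 in DP cKO and did not pass (-0.79, limma adjusted p = 0.290), nor did Ptcra, the pre-T cell receptor chain (-0.30). The summed linear intensity of the list was 3349 to 3712 on CD8 SP cKO arrays and 8474 to 10153 on DP cKO arrays.

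Of 31 measured transcription factors of thymocyte stages 11 fell and 3 rose, with a median of -0.38. Bcl6, a repressor, was at 7.13, 7.0 and 7.64 in CD8 SP cKO and 10.29, 9.67 and 9.94 in DP cKO (-2.71 ± 0.29, limma adjusted p = 2.53e-05). Bcl11b, which fixes T cell identity (-1.0 ± 0.20), Satb1, a chromatin organizer (-0.94 ± 0.20), Myb, a regulator of DP cell survival (-1.53 ± 0.32), and Klf3 (-1.90 ± 0.40) also fell. Id2, an inhibitor of E proteins, rose to 7.11, 7.16 and 7.28 in CD8 SP cKO, against 4.70, 5.10 and 5.98 in DP cKO (1.92 ± 0.34). Bach2 (2.13 ± 0.54) and Klf2, the factor that drives S1pr1 and exit from the thymus (at least 1.52-fold), rose too, but both lost the call without array 1 of CD8 SP cKO (limma adjusted p = 0.113 and 0.0641), as Bach2 did without array 3 of CD8 SP cKO or array 1 or 3 of DP cKO. The count that fell was 7 without array 2 of CD8 SP cKO or without array 1, 2 or 3 of DP cKO, and 5 with arrays scaled to one median. Runx3, Tcf7 and Gata3 were not measured.

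Genes of SP maturation and egress rose more often than they fell, 9 up and 2 down of 20 measured, with a median of 0.78. Beside Il7r, Ms4a6b and Ccr7 they included Slfn1, a Schlafen family gene of quiescent T cells, at 8.39, 8.22 and 8.38 in CD8 SP cKO and 5.27, 5.04 and 5.13 in DP cKO (3.18 ± 0.27, limma adjusted p = 2.18e-06). Samhd1, a dNTP hydrolase, was at 7.62, 6.62 and 7.49 in CD8 SP cKO and below detection in DP cKO (at least 5.18-fold), and the actin regulator Evl rose by 2.37. Both groups were apart in each. The 2 that fell were Klf3 and Cd47, the "do not eat me" signal, and Cd47 (-0.89) kept its call only when array 3 of DP cKO was the one left out (limma adjusted p = 0.0634 to 0.154 in the other 5 fits). S1pr1 was not measured. Foxo1, which drives both Klf2 and Il7r, was at a difference of 1.37 and did not pass (limma adjusted p = 0.0827).

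Of 13 measured CD8 lineage and cytotoxic genes 4 rose and 1 fell. Ctsw, a cysteine protease of cytotoxic cells, joined Itgae, Nkg7 and Xcl1 at 6.12, 6.41 and 5.31 in CD8 SP cKO, with no detection in DP cKO (at least 2.11-fold, limma adjusted p = 0.0112, and 0.0632 without array 2 of CD8 SP cKO). Prf1, which encodes perforin, went the other way, at 6.28, 6.57 and 7.52 in CD8 SP cKO and 8.80, 8.13 and 8.69 in DP cKO (-1.75 ± 0.34, limma adjusted p = 0.00355). Eomes, Ccl5, Klrk1, Il2rb, Crtam and Fasl were not called, and Gzma and Gzmb were not measured.

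Chemokine receptors and integrins were split, with 4 of 19 measured called, all higher: Itgae, Itgb7, Ccr7 and Gpr18, an orphan receptor, at 8.80, 8.57 and 7.94 in CD8 SP cKO and 5.57, 5.65 and 5.69 in DP cKO (2.80 ± 0.33). The cortical homing receptors missed the threshold, Ccr9 at -1.32 (limma adjusted p = 0.0520) and Cxcr4 at -0.81 (limma adjusted p = 0.0794). The list's count called lower moved with the processing: 3 without background correction, from the series matrix or with a trended and robust variance. It was 2 with an offset of 50 or a stricter detection filter. One setting at a time, it was 1 with median scaling, the mean of all probes of a gene, the arrays numbered 3 left out or array 3 of CD8 SP cKO left out. Among 20 cytokine receptors Il7r and Il27ra (1.54 ± 0.33) rose. Both chains of the interferon gamma receptor fell, Ifngr1 by 1.42 (limma adjusted p = 0.00197) and Ifngr2 by 1.01, and Ifngr2 lost its call without array 2 or 3 of CD8 SP cKO or array 1 of DP cKO (limma adjusted p = 0.0790 to 0.127). Il2rg, the common gamma chain, was below detection on its brightest probe in CD8 SP cKO and at 6.69, 7.14 and 6.89 in DP cKO (at least 3.77-fold lower). None of 14 JAK, STAT and SOCS genes was called by limma.

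Of 20 measured genes of the BCL2 family and cell death 1 rose and 2 fell. Bcl2l1, the anti-apoptotic BCL-XL gene of DP cells, was at 7.09, 7.53 and 6.85 in CD8 SP cKO and 8.87, 9.37 and 8.88 in DP cKO (-1.89 ± 0.30, limma adjusted p = 0.000972). Bcl2a1d, another anti-apoptotic member, was at 7.75, 7.88 and 7.90 in CD8 SP cKO and 5.79, 6.10 and 6.40 in DP cKO (1.75 ± 0.28). The death receptor Fas was below detection on its brightest probe in CD8 SP cKO and at 7.0, 5.83 and 7.35 in DP cKO (at least 3.48-fold lower). Its other tested probes were each detected on 1 CD8 SP cKO array and not called (-1.13 and -1.50, limma adjusted p = 0.149 and 0.0858). The other 17 genes of the list, Bcl2 (0.25) and Bcl2l11 (-0.58) among them, were not called. The list's counts moved with the processing: without background correction 6 fell and 2 rose, and with the series matrix 5 fell. Without the detection filter, or with a trended and robust variance, 4 fell. Bcl2a1d has close paralogs, and Bcl2a1b had 0.90 (limma adjusted p = 0.161), so which copy the probes read is uncertain.

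Of 21 measured genes of T cell receptor signalling 3 fell and 0 rose: Sla, an adaptor that promotes receptor turnover in DP cells (-1.39 ± 0.20), the diacylglycerol kinase Dgka (-0.99) and the RAS activator Rasgrp1 (-0.82). Sla was at 8.33, 8.53 and 8.42 in CD8 SP cKO and 10.00, 9.67 and 9.76 in DP cKO. Without array 2 of CD8 SP cKO or array 1 of DP cKO the count was 1, since Dgka and Rasgrp1 lost their calls (limma adjusted p = 0.111 to 0.130). Without background correction or without the detection filter 7 fell and 1 rose, with the series matrix 7 fell, and with a trended and robust variance 6 fell and 1 rose. Positive selection and receptor-induced genes, 17 measured, had Cd53 called higher and Cd27, a costimulatory receptor, called lower (-0.81; limma adjusted p = 0.0710 without array 2 of CD8 SP cKO and 0.0775 without array 1 of DP cKO). Egr1, Egr2, Nr4a2, Id3 and Tox were detected on all 6 arrays and not called.

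Of 29 measured interferon-stimulated genes 8 were called higher and 0 lower. The list's median was 0.72, or 0.57 with genes below detection in a group at their bound. Ifi47, an interferon-inducible GTPase, was at 7.30, 7.13 and 7.40 in CD8 SP cKO and 4.65, 4.40 and 5.17 in DP cKO (2.54 ± 0.34, limma adjusted p = 0.000222). Isg15, a ubiquitin-like modifier, was at 8.42, 8.41 and 7.74 in CD8 SP cKO and 6.78, 7.17 and 6.57 in DP cKO (1.35 ± 0.25). No values of the groups overlapped for either. Trim30a (2.00 ± 0.33), Ifit3 (2.10 ± 0.45), the RNA sensor Ddx58 (at least 3.13-fold) and the antiviral Rsad2 (at least 2.13-fold) rose as well. On DP cKO arrays 11 of the 29 were detected on no array, and on CD8 SP cKO arrays 1.

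Of 17 measured genes of MHC class I presentation 6 were called higher and 0 lower. The count was 3 when only the arrays compared were fitted or the arrays numbered 3 were left out, and 9 higher and 1 lower without background correction. H2-K1, a classical class I heavy chain, was at 8.5, 7.96 and 8.31 in CD8 SP cKO and 5.66, 5.49 and 5.72 in DP cKO (2.63 ± 0.23, limma adjusted p = 3.35e-06). Nlrc5, the transactivator of class I genes, was at 7.90, 6.29 and 7.5 in CD8 SP cKO and below detection in DP cKO (at least 5.12-fold). H2-D1 (1.59 ± 0.22) and B2m, the light chain (0.96 ± 0.19), were called too. The immunoproteasome subunits Psmb10 (0.94) and Psmb9 (0.85) lost their calls without array 1 of CD8 SP cKO (limma adjusted p = 0.0545 and 0.0505), and also without array 1 of DP cKO for Psmb10 and array 2 or 3 of DP cKO for Psmb9. Class I heavy chains are near-identical in sequence, so their probes may read each other's RNA.

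For the interferon-stimulated and the replication genes, lists with 8 members each called higher and 0 lower, the letters of the promoters were read from RefSeq (GRCm38.p6), each window running from 250 bases before to 50 after the annotated start. The interferon-stimulated response element was searched as GAAA, any 2 bases and GAAA again, and an E2F site as TTTCCCGC or TTTGGCGC, on both strands, and capitals mark each match. Of the 29 measured interferon-stimulated genes 23 had a window and 14 of these held the first motif (60.9%), 5 of the 7 with a window among those called. Of the 30 measured replication genes 26 had a window and 9 held the E2F letters (34.6%), 5 of 7 among those called. Over the 9755 tested genes with a window the shares were 3.64% and 2.95%, over all 27025 genes with one they were 3.99% and 1.80%, and over 23 mitosis genes 0 held the E2F letters. A match describes the letters only. For each group the 2 called members with the smallest p and a match are shown.
Trim30a, chr7:104465144-104465443, minus strand: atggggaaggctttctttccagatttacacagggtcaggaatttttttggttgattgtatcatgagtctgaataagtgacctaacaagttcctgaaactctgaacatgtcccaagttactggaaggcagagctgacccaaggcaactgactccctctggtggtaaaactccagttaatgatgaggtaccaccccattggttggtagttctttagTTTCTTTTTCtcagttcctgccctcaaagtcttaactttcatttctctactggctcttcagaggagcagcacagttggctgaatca
Isg15, chr4:156200769-156201068, minus strand: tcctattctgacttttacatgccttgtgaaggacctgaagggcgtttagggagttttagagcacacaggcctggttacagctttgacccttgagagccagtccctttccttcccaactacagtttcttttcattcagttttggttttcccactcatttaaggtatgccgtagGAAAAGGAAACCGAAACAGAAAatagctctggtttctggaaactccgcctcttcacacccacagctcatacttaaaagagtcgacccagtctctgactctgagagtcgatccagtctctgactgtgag
Cdt1, chr8:122567765-122568064, plus strand: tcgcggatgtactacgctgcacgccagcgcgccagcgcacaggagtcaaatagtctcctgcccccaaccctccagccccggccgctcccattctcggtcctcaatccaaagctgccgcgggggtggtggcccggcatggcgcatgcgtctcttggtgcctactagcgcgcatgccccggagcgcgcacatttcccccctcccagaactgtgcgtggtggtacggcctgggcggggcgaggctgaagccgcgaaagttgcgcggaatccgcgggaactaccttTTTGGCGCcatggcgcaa
Mcm5, chr8:75109259-75109558, plus strand: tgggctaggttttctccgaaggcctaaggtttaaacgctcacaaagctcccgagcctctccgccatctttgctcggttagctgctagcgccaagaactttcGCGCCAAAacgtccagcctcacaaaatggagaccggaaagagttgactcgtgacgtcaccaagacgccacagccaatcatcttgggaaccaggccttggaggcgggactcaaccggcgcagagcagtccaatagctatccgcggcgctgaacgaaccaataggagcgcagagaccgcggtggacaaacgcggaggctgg
In Isg15 the 3 overlapping matches form one run of capitals.

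Ribosome building genes had 10 of 16 measured called higher and 0 lower, with a median of 1.41. Myc, the growth regulator that drives many of them, was at 5.26, 6.07 and 6.18 in CD8 SP cKO and below detection in DP cKO (at least 1.95-fold, limma adjusted p = 0.00612). Npm1, nucleophosmin, was at 11.06, 11.18 and 11.21 in CD8 SP cKO and 9.87, 10.16 and 10.14 in DP cKO (1.1 ± 0.20). Rrp9 (2.31 ± 0.34), Nop58 (1.36 ± 0.24), Mybbp1a (1.5 ± 0.27), Gnl3 (1.51 ± 0.28) and Polr1a, the catalytic subunit of RNA polymerase I (2.24 ± 0.42), rose beside them. With every array numbered 3 left out 5 members were called. Of 16 measured heat shock and immediate early genes 4 rose and 1 fell, with a median of -0.08. The chaperone genes Hspe1 (2.12 ± 0.24), Hsph1 (2.09 ± 0.27) and Hspd1 (1.51 ± 0.21) were among those that rose, while Dnajb1 was at -0.38 and Hspa1b at -0.20, not called.

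Of 30 measured replication genes 8 were called higher and 0 lower, 26 lay above 0 and the median was 0.82. Cdt1, a licensing factor, was at 8.26, 8.26 and 8.37 in CD8 SP cKO and spread from 5.22 to 7.41 in DP cKO (1.97 ± 0.40, limma adjusted p = 0.00485). Mcm5, a subunit of the replicative helicase, was at 10.24, 9.97 and 10.49 in CD8 SP cKO and 9.0, 9.22 and 9.40 in DP cKO (1.03 ± 0.24). Mcm3, Mcm4, Mcm6, Mcm7, Mcm10 and Cdc45 made up the rest, with differences of 0.76 to 1.66. With the chip as a block Mcm6 missed the threshold (limma adjusted p = 0.0510). Of the 8, Cdt1 kept its call whichever array was left out. The count moved with single arrays and with the processing: 3 without array 2 and 1 without array 3 of CD8 SP cKO, 1 without array 1 and 5 without array 2 of DP cKO. It was 1 when only the arrays compared were fitted, 13 with the mean of all probes of a gene, and 16 higher with 1 lower without background correction. None of 27 mitosis genes was called by limma and their median was 0.01, with Mki67 at -0.40 and Plk1 at 0.20; no other setting called any either.

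Of 15 measured glycolysis genes 5 rose, Pgam1 (1.42 ± 0.20), Tpi1 (1.34 ± 0.25), Ldha, Pkm and Pgk1, and none fell. Pgam1 was at 8.80, 8.80 and 8.73 in CD8 SP cKO and 7.09, 7.49 and 7.49 in DP cKO. The count was 2 without array 2 of CD8 SP cKO or array 1 of DP cKO and 3 without array 3 of CD8 SP cKO. In cholesterol synthesis 2 of 13 rose, Idi1 (1.36 ± 0.27) and Cyp51 (at least 2.56-fold). Cyp51 lost its call without array 1 or 3 of CD8 SP cKO or any array of DP cKO (limma adjusted p = 0.0667 to 0.108). Of the WNT pathway's 22 measured genes Myc and the corepressor Tle4 (1.35 ± 0.32) rose and the kinase Gsk3b fell (-1.17 ± 0.29). The calls of Tle4 and Gsk3b were each lost in 2 or 3 fits that left out an array (limma adjusted p = 0.0613 to 0.107). Axin2, the feedback target that reports WNT signalling, was at 0.73 (limma adjusted p = 0.451), and Lef1 at 0.59 did not pass.

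**Figure D3:**
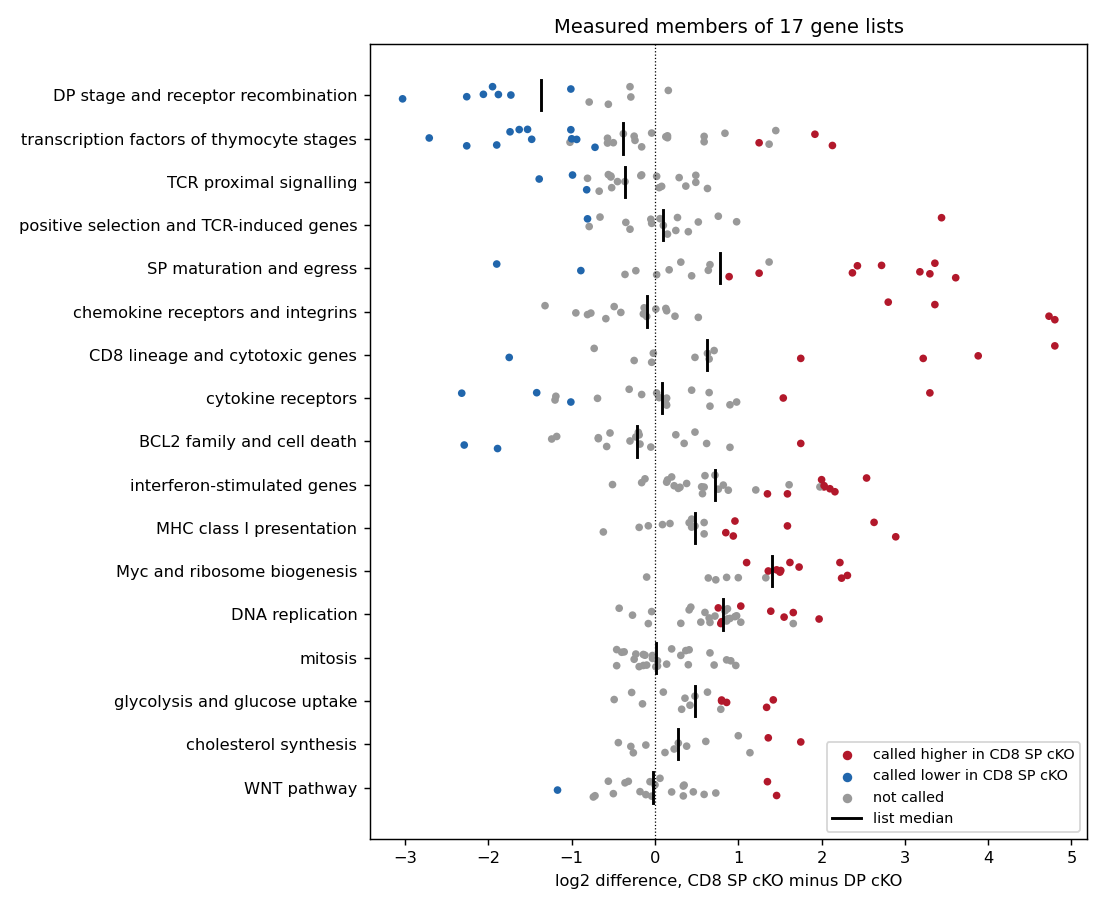
Log2 difference between CD8 SP cKO and DP cKO (x axis) of each measured member of 17 gene lists, 1 list per line of the plot; red points were called higher, blue lower and grey not called, and the bar is the list median. DP stage genes lie to the left with a median of -1.37, and ribosome biogenesis genes to the right with 1.41.

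Few measured markers of cells the gates could hold beside the labelled ones were called. Over all genes tested 6.88 percent were called, so 0 calls in lists this short do not show that such cells were absent. Of the measured markers of DN thymocytes (6 of 11), gamma delta T cells (5 of 11), B cells (7 of 14), neutrophils (1 of 10), erythroid cells (3 of 12) and thymic epithelium and stroma (12 of 21) limma called none. In the regulatory T cell list only Itgae was called, in the NKT and NK list only Id2, and both stand in other lists. Siglech, a plasmacytoid dendritic cell receptor, fell to 6.15, 4.95 and 6.63 in CD8 SP cKO, against 8.31, 7.24 and 8.24 in DP cKO (-2.02 ± 0.39, limma adjusted p = 0.00384). The summed linear intensity of the macrophage and dendritic list was 605 to 686 in CD8 SP cKO and 688 to 789 in DP cKO, with Cd68 on no array of either, and its part in any result was not tested.

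Beside CD4 SP cells of cKO thymi, CD8 SP cKO cells had higher levels of several DP stage genes. The comparison shares the CD8 SP cKO arrays with the one above, so the values stand side by side and no overlap is counted. It called 564 of 13894 genes (4.06), 351 higher (2.53) and 213 lower (1.53), and 1047 probes (3.92), 570 higher (2.14) and 477 lower (1.79). Endou, an endoribonuclease gene, was at 9.29, 8.94 and 9.12 in CD8 SP cKO, 4.76, 4.54 and 4.36 and below detection in CD4 SP cKO, and 10.44, 10.32 and 10.39 in DP cKO. CD8 SP cKO stood at least 18.8-fold above CD4 SP cKO (limma adjusted p = 2.87e-09) and 1.26 below DP cKO on the log2 scale. Rag1 was at 7.39, 7.65 and 6.49 in CD4 SP cKO, which put CD8 SP cKO 2.79 ± 0.26 higher, and Aqp11 stood 3.22 ± 0.30 higher. Dntt and Xrcc6, a DNA end-joining factor, also exceeded CD4 SP cKO, by 4.00 and 2.65. In all 4 of 12 DP stage genes were called higher than in CD4 SP cKO and 0 lower, and the list's summed linear intensity was 985 to 1288 on CD4 SP cKO arrays.

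Cell division genes also differed between the SP populations. Of 30 replication genes 25 were higher in CD8 SP cKO than in CD4 SP cKO, and of 27 mitosis genes 17, with 0 lower in either list and medians of 1.70 and 1.77. Plk1, a mitotic kinase, was at 9.52, 9.91 and 9.76 in CD8 SP cKO, 7.37, 6.67 and 6.45 in CD4 SP cKO and 9.66, 9.51 and 9.42 in DP cKO. Its difference from CD4 SP cKO was 2.90 ± 0.25 (limma adjusted p = 3.18e-06). Birc5, survivin, differed by 3.19 ± 0.29 and Mki67, the proliferation marker, by 2.21 ± 0.29. Tipin, a replication fork factor, was below detection in CD4 SP cKO and stood higher in CD8 SP cKO than in either other population (at least 11.7-fold above CD4 SP cKO, and 1.56 above DP cKO on the log2 scale). The summed linear intensity of the mitosis list was 7794 to 9309 in CD8 SP cKO, 1998 to 2601 in CD4 SP cKO and 7511 to 9673 in DP cKO. Leaving out single arrays gave 19 to 24 replication genes and 13 to 17 mitosis genes, and a fit of only the arrays compared gave 10 of each. A CD4-negative CD8-positive gate also admits immature single-positive cells, dividing precursors that have not yet become DP, and the labels name no further gate. Their part in these differences, and in those between CD8 SP cKO and DP cKO, was not tested.

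Other genes went with one SP lineage. Itgae and Nkg7 were below detection in CD4 SP cKO as in DP cKO, and CD8 SP cKO stood at least 20.5-fold and at least 9.67-fold above CD4 SP cKO. Itgb7 was at a mean of 9.30 in CD4 SP cKO and did not pass between the SP populations (-0.12, limma adjusted p = 0.894). Il7r was at 9.72, 9.46 and 9.38 in CD4 SP cKO, which left CD8 SP cKO 1.95 ± 0.27 lower (limma adjusted p = 0.000394) though far above DP cKO. Samhd1 and Id2 had the same order, 2.00 ± 0.30 and 2.09 ± 0.34 lower than CD4 SP cKO. The tetraspanin Tspan32, the receptor segment Trav4d-4 and Ecac2 were lower in CD8 SP cKO than in both other populations, by 1.72 to 2.39 against CD4 SP cKO and by 1.09 to 1.79 against DP cKO. The factor Hand2, below detection in CD8 SP cKO, was at least 3.02-fold lower there than in CD4 SP cKO and at least 2.81-fold lower than in DP cKO. Hand2 lost the call against CD4 SP cKO when the arrays numbered 3 were left out (limma adjusted p = 0.0542).

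**Figure D4:**
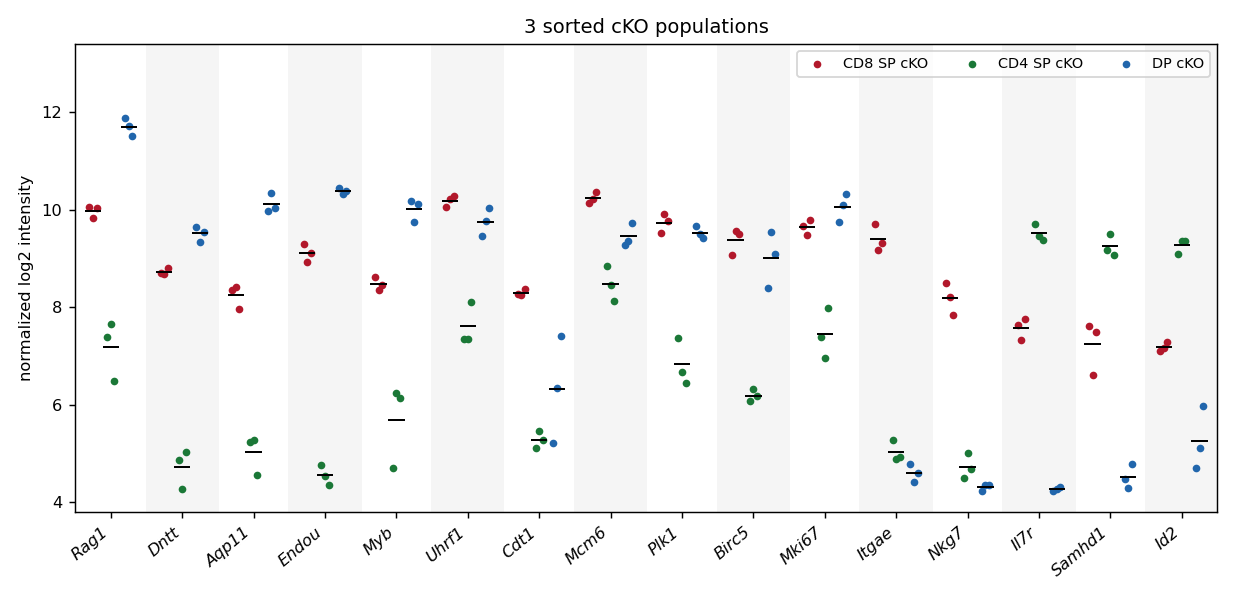
Normalized log2 intensity (y axis) of 16 genes in CD8 SP cKO (red), CD4 SP cKO (green) and DP cKO (blue); points are arrays and lines group means. Rag1, Dntt, Aqp11, Endou and Myb in CD8 SP cKO lie between the other populations, Plk1, Birc5 and Mki67 lie near DP cKO, and Il7r, Samhd1 and Id2 lie highest in CD4 SP cKO.

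CD8 SP and DP cells were also compared in wt thymi. That comparison, with no array in common with the cKO one but on the same chips, called 1074 of 13894 genes (7.73), 509 higher (3.66) and 565 lower (4.07). By probe it called 2231 (8.36), 769 higher (2.88) and 1462 lower (5.48). Of the 956 genes called in cKO, 942 (98.5%) had the same sign in wt, against 66.4% of all genes tested. Called in both were 596, which is 62.3% of the cKO calls and 55.5% of the wt calls, and 1 of these had opposite signs. The median absolute difference of the 956 was 1.39 in cKO, where they were chosen, and 1.11 in wt. Itgae rose at least 23-fold in cKO and at least 26.3-fold in wt, and Nkg7 at least 9.93-fold in cKO and at least 11.2-fold in wt, bounds that set no order between the genotypes. Rag1 fell by 1.73 in cKO and 2.03 in wt. Ribosome biogenesis had 10 of 16 called higher in wt too (median 1.35), the interferon list 12 of 29 and the DP list 7 of 12 called lower. Other lists were less alike. Replication had 2 of 30 higher and 1 lower in wt, against 8 and 0 in cKO (medians 0.58 and 0.82). CD8 lineage and cytotoxic genes had 6 of 13 higher and 0 lower in wt, against 4 and 1 in cKO (medians 1.42 and 0.63).

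The difference between the genotypes was tested directly, as the CD8 SP minus DP difference in cKO less that in wt. Limma called 0 of 26676 probes (percent called 0.0), with a lowest adjusted p of 0.712, and 1381 probes had an unadjusted p under 0.05 where chance gives 1333.8. This does not show that cKO and wt were equal. The 95% interval of the difference reached 1.09 to either side for the median gene tested. For the median gene called in cKO it reached 0.87, genes near background included. For Rag1 it ran from -0.48 to 1.08. Genes with the smallest p, none past the threshold, were Coq5, Frmpd4, Ice1, Pofut2 and Akr1b10 on the upper side and Fbh1, Cdkl1, H2-Q1, Alg6 and Slc12a1 on the lower. Coq5, Frmpd4, Pofut2, Akr1b10 and Cdkl1 were each detected on no array of 1 or more of the 4 groups, so no size is given for them. Ice1 differed by 1.64 ± 0.37 (cKO minus wt), Fbh1, a DNA helicase, by -2.06 ± 0.42, H2-Q1 by -1.64 ± 0.40, Alg6 by -1.73 ± 0.45 and Slc12a1 by -1.62 ± 0.44. The limma adjusted p of the 10 lay between 0.712 and 0.884. Wls differed by -0.50 in cKO and 0.90 in wt, a difference of -1.40 ± 0.44 that missed the threshold (limma adjusted p = 0.884), and its second probe had the opposite sign (-0.15 in cKO and -0.66 in wt, a difference of 0.51). Prf1 fell by 1.75 in cKO and was at -0.75 in wt (limma adjusted p = 0.197 there), with an interval of the difference from -2.01 to 0.00.

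**Figure D5:**
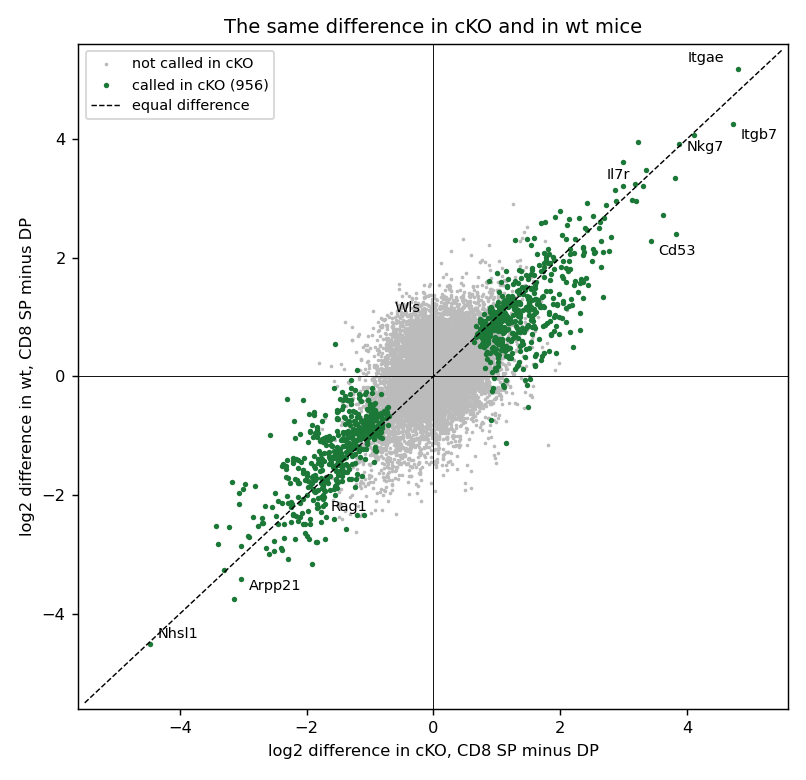
Log2 difference between CD8 SP and DP in cKO mice (x axis) and in wt mice (y axis), 1 point per gene, with the 956 genes called in cKO in green and a dashed line of equal difference. Of the green points 942 have the same sign on both axes.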

How the data were processed

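RNA of sorted thymocytes was measured on 18 Illumina arrays, 3 in each of 6 groups. The authors deposited a bead intensity per probe and array, per the file headers without background subtraction or normalization, and a detection p-value beside it. The deposited series matrix holds intensity values the authors had normalized. Their method was not given in the labels or headers, and these values served as an alternative.

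From the deposited values limma 3.58.1 (R 4.3.3) made log2 intensities with neqc, which corrects background through the detection p-value, equalizes quantiles and adds an offset of 16. Of 46237 probes, 26676 with a detection p under 0.05 on at least 3 arrays were tested. The array annotation named 1 gene for 35784 probes and none for 10453. Symbols were updated through gene ID (28620 probes) or accession (2637), which changed 937. A gene is read from its tested probe with the highest mean. All 18 arrays entered one model with a mean per group (12 residual degrees of freedom), with Benjamini-Hochberg adjustment across the tested probes and a threshold of 0.05. The code was tested on simulated data. The number of arrays limits the precision.

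Per the file headers, replicate numbers stand for 3 chips that each hold all groups. Deviations of the same-numbered CD8 SP cKO and DP cKO arrays from their group means correlated at 0.039, 0.194 and 0.250 (different numbers -0.258 to 0.123). The fit without a chip block is the one reported.

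Named genes are the sorting markers and Wls, the 12 largest rises and 12 largest falls without overlap, up to 6 called members of each list in each direction by smallest p, up to 5 genes in each direction for the genotype difference, and up to 6 in each direction called against both CD4 SP and DP. Cell division genes and Dntt, Xrcc6 and Id2 in the CD4 SP comparison, and members named as not called, were picked after their values were seen. The 35 lists held 623 genes, 464 of them measured, and 66 were called higher and 35 lower. Members and lists were chosen with earlier results of these data known. Lists named least or not at all in the results were GIMAP GTPases (Gimap7 called higher, Gimap9 lower, of 7 measured), SLAM receptors (Slamf1 and Cd84 lower of 5), CD4 lineage (Cd4 and Myb lower of 9), the Notch pathway (Dtx1 higher of 8), heat shock and immediate early genes (4 higher and 1 lower of 16), sialyltransferases (0 of 15) and glucocorticoid response (0 of 11). Figures were drawn with matplotlib 3.10.9.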

Additional observations from a re-analysis of the deposited data

How the results depend on the processing

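No listed or named call turned its sign under any alternative. Probes called between CD8 SP cKO and DP cKO numbered 1848, and 887 when only those 6 arrays were fitted, 994 with 1 probe per gene and 995 without the arrays numbered 3 (an alternative chosen after seeing the data), with 1081 to 1491 when single arrays were left out. In wt the count was 2231, with 1455 for only the arrays compared, 1071 with 1 probe per gene, and 1246 to 2217 over single arrays left out. Against CD4 SP cKO it was 1047, with 289 for only the arrays compared, 1890 without background correction, 1773 from the series matrix, 1835 with a trended and robust variance, 609 with 1 probe per gene, 407 without the arrays numbered 3, and 615 to 898 over single arrays left out. Listed genes called numbered 101, with 62 for only the arrays compared, 64 without the arrays numbered 3, and 74 to 87 over single arrays left out. The fits with fewer samples or fewer probes hold less information by construction, and the cause of the other shifts was not tested. The genotype difference gave 0 calls in the 11 other settings and in the 12 fits without 1 array. With the replicate number as a block the counts were 1933, 2365, 0, 1078 and 104. It cost 1 listed call, Mcm6 (limma adjusted p = 0.0510), and added Cd28, Mdm2, Prim1 and St3gal1. Scaling to medians moved the median probe difference from 0.015 to 0.124 and the share of calls that were higher from 39.5% to 57.2%, in wt from 34.5% to 47.4% and against CD4 SP cKO from 54.4% to 68.9%. Of 124 called genes that were listed or named, 63 kept the call in every alternative run and 82 in every fit that left out 1 array. Signal near background limits the rest: 64 genes called higher and 72 called lower were detected on no array of the dimmer group, so their differences are bounds.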

Other observations

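Members of the GIMAP, SLAM and Notch lists were called too. Of 7 measured GIMAP GTPases, regulators of lymphocyte survival, Gimap7 was at 7.74, 7.06 and 6.66 in CD8 SP cKO and 4.53, 4.74 and 5.65 in DP cKO (2.18 ± 0.48, limma adjusted p = 0.00903). Gimap9 was at 5.21, 4.42 and 6.13 in CD8 SP cKO and 6.96, 7.32 and 6.95 in DP cKO (-1.82 ± 0.39). The call of Gimap7 was lost without array 1 of DP cKO (limma adjusted p = 0.0563). Slamf1, a receptor through which DP cells signal to each other, fell to 4.64, 5.57 and 4.34 in CD8 SP cKO, against 8.09, 7.29 and 7.70 in DP cKO (-2.84 ± 0.45, limma adjusted p = 0.000832). Cd84 (at least 2.98-fold lower) kept its call only when array 2 of DP cKO was the one left out. Without any other single array its limma adjusted p was 0.0824 to 0.208. The other Cd84 probes were not called (-0.46 and -0.23). Dtx1, a target of Notch, was at 7.41, 8.02 and 7.60 in CD8 SP cKO and 6.39, 6.50 and 5.65 in DP cKO (1.5 ± 0.33), with a limma adjusted p of 0.0506 without array 3 of DP cKO.

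Prf1, which encodes perforin, was the 1 gene called lower of 13 measured in the CD8 lineage and cytotoxic list, 8 of which lay above 0. In wt the same comparison had Prf1 at -0.75, where it was not called, and the difference between genotypes was not called either.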
